A study of Mus musculus with 8 samples.

Results

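The antioxidant and glutathione genes were 36 mouse genes picked by gene name from the 33249 genes of the deposited gene table. They were 2 regulators (Nfe2l2 and Keap1), 5 genes of glutathione synthesis and recycling, 5 glutathione transferases, 6 genes of the thioredoxin system, 2 quinone and heme enzymes, 5 glutathione peroxidases and catalase, 3 superoxide dismutases, 6 peroxiredoxins and 2 NADPH oxidase subunits. Of these, 35 had a mean FPKM (fragments per kilobase of transcript, scaled to sequencing depth) of at least 0.5 over the 8 libraries and were tested together with all 14028 genes that passed this minimum. The remaining one, Slc7a11, which encodes the cystine carrier that supplies glutathione synthesis, was close to the floor in every library at 0.814 to 2.80 CPM (counts scaled to the normalized library size) and was not tested.

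The libraries were RNA sequencing of mouse myocardium in 4 groups of 2 libraries, named by genotype and operation as fl/fl-Sham and fl/fl-MI, and as CKO-Sham and CKO-MI. All groups carried the floxed Piezo1 allele, Piezo1 being a mechanically gated cation channel. The fl/fl mice, labelled WT, were littermates without Cre, and the CKO mice, labelled Piezo1 knockout, also carried the Myh6-Cre transgene, a tamoxifen-inducible Cre driven by a cardiomyocyte promoter, so that other cells of the heart keep Piezo1. By the study's methods, tamoxifen was given at 4 weeks of age and surgery was done at 8 weeks, with the left anterior descending artery tied off for good in myocardial infarction (MI) and not tied in sham, and the MI hearts were labelled day 42. The labels give no strain, sex or sham time, and do not say whether a library was 1 heart or a pool, so the p-values measure the spread between these libraries.

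Reactive oxygen species made by mitochondria and by NADPH oxidases are held in check in the heart by linked enzyme systems. Superoxide dismutases turn superoxide into hydrogen peroxide, and catalase, glutathione peroxidases and peroxiredoxins remove the peroxide. Glutathione and thioredoxin supply the electrons and are themselves restored by reductases that use NADPH. KEAP1 holds the transcription factor NRF2, encoded by Nfe2l2, for degradation, and oxidants that modify KEAP1 let NRF2 switch on many of these enzymes through antioxidant response elements.

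Total counts ran from 73821747 to 88117573 per library. Cardiomyocyte markers summed to between 20159 and 45650 CPM in all 8 libraries. The library labelled fl/fl-MI 2 stood apart, with the atrial genes Bmp10 and Myl4 at 3834 and 2810 CPM against at most 18.8 and 48.0 in the other 7 libraries. Piezo1, the targeted gene, stood at 72.2 and 82 CPM in fl/fl-Sham, 76.7 and 88.3 CPM in CKO-Sham, 53.5 and 64.8 CPM in the fl/fl-MI pair and 56.3 and 64.6 CPM in the CKO-MI pair, and so was not lower in the libraries labelled CKO. The inducible Cre is fused to a part of the estrogen receptor encoded by Esr1, and Esr1 stood at 707 and 402 CPM in CKO-MI and at 331 CPM in fl/fl-MI 2, but at 5.52 to 8.36 CPM in the other 5 libraries, both CKO-Sham libraries among them. Esr1 did not follow the genotype labels in 3 libraries (fl/fl-MI 2 and both CKO-Sham libraries), and Piezo1 did not separate the labelled genotypes in sham or in MI. Every genotype comparison here is therefore between libraries as labelled, and results are given with and without fl/fl-MI 2 where it matters.

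Per length, the members covered more than 3 orders of magnitude in sham hearts. Txnip, an inhibitor of thioredoxin, had a mean of 149 FPKM over the 4 sham libraries (range 141 to 162). Next came Gpx4, which reduces lipid peroxides, at 141 FPKM and Gpx3, the secreted glutathione peroxidase, at 95.0 FPKM, and the ranges of Txnip and Gpx4 (122 to 171 FPKM) overlapped. At the other end stood Gss, the second enzyme of glutathione synthesis, at 1.58 FPKM, Nox4, an oxidase that makes hydrogen peroxide, at 0.323 FPKM and Slc7a11 at 0.102 FPKM. After MI the order of the means changed at the top. Gpx3 had the highest mean, at 465 FPKM over the 4 MI libraries (205 to 933), ahead of Txnip at 286 FPKM (157 to 412) and Gpx4 at 123 FPKM. In CKO-MI 1 Txnip, at 264 FPKM, was above Gpx3, at 205 FPKM. FPKM was higher after MI for the median of all genes tested as well, by 0.41 in log2(FPKM + 1).

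**Figure D1:**
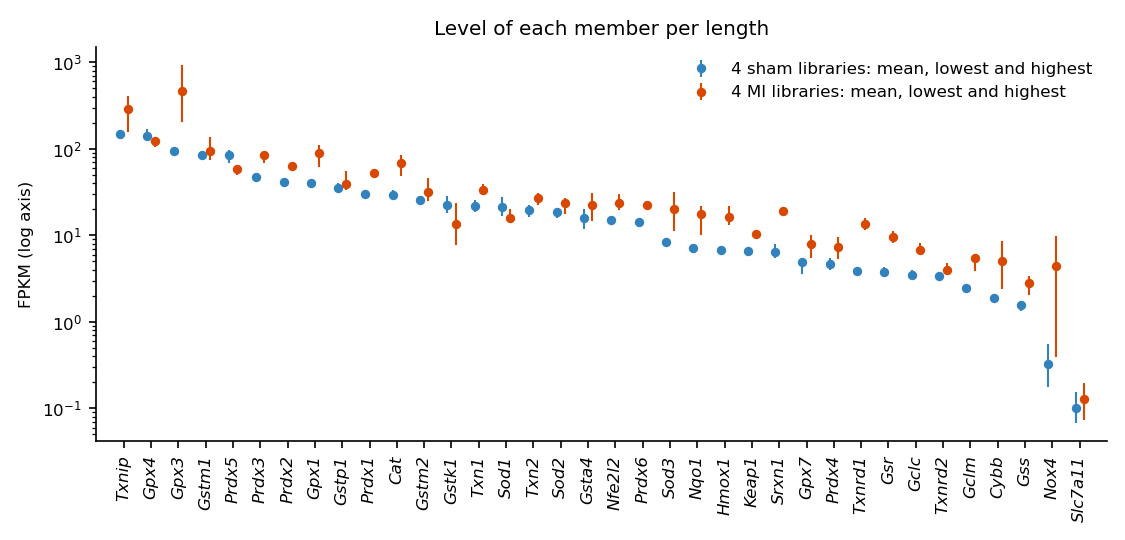
Level of the 36 members in FPKM, on a log axis, ordered by the mean of the 4 sham libraries (blue). Orange points are means of the 4 MI libraries and bars run from the lowest to the highest library. The mean of Gpx3 moves from 95.0 to 465 FPKM and is the highest mean after MI, and the widest bars after MI belong to Nox4 and Gpx3.

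The first comparison asked how the members changed after infarction, with the MI libraries of both labelled genotypes set against the sham libraries of both (4 against 4). Genes called at an adjusted p under 0.05 by the quasi-likelihood test of edgeR with Benjamini-Hochberg adjustment over all 14028 genes numbered 15 of the 35 members. The rise took in 11 members (31.4%), namely Nox4, Gpx3, Txnrd1, Srxn1, Gsr, Cybb, Hmox1, Nqo1, Cat, Gpx1 and Gclm, against a background of 22% of all genes called higher. The fall took in 4 members (11.4%), Gstk1, Prdx5, Sod1 and Gpx4, against 18.3% of all genes called lower. The median log2 fold change was 0.12 over the 35 members and 0.03 over all genes tested. A change of at least 2-fold at an unadjusted p under 0.05 was met upward by Gpx3, Txnrd1, Nox4 and Srxn1 (4 members, background 7.91%) and downward by Prdx5 and Gstk1 (2 members, background 8.08%). Every MI library lay above every sham library for 9 members (25.7%, background 20.9%) and below for 4 (11.4%, background 19.5%). In bulk tissue, fewer cells of a type and less RNA per cell cannot be told apart, and markers of other cell types moved with MI as well. All 7 fibroblast markers were called higher after MI, with sums of 1406 to 1551 CPM in sham and 2218 to 6406 CPM in MI libraries, and all 6 endothelial markers were called lower, with sums of 1571 to 1740 and 493 to 731 CPM. All 5 erythroid markers were called higher, with sums of 79.7 to 551 CPM in sham and 272 to 753 CPM in MI libraries. Of 4 adipocyte markers 1 was called lower (sums of 883 to 1457 and 307 to 419 CPM). Among them Adipoq overlapped, at 15.2 to 17.6 CPM in sham and 12.1 to 23.6 CPM in MI libraries. Of 5 atrial markers 1 was called higher (sums of 135 to 594 and 2547 to 19857 CPM). Bmp10, Myl4, Myl7 and Sln were each at most 12.6 CPM in the MI libraries other than fl/fl-MI 2. The atrial sums of those libraries were thus nearly all Nppa, the remaining marker. Mitochondrially encoded genes made up 43.1 to 46.4% of counts in sham and 19.9 to 24.2% in MI libraries. The part of these shifts in the members' changes was not tested.

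**Figure D2:**
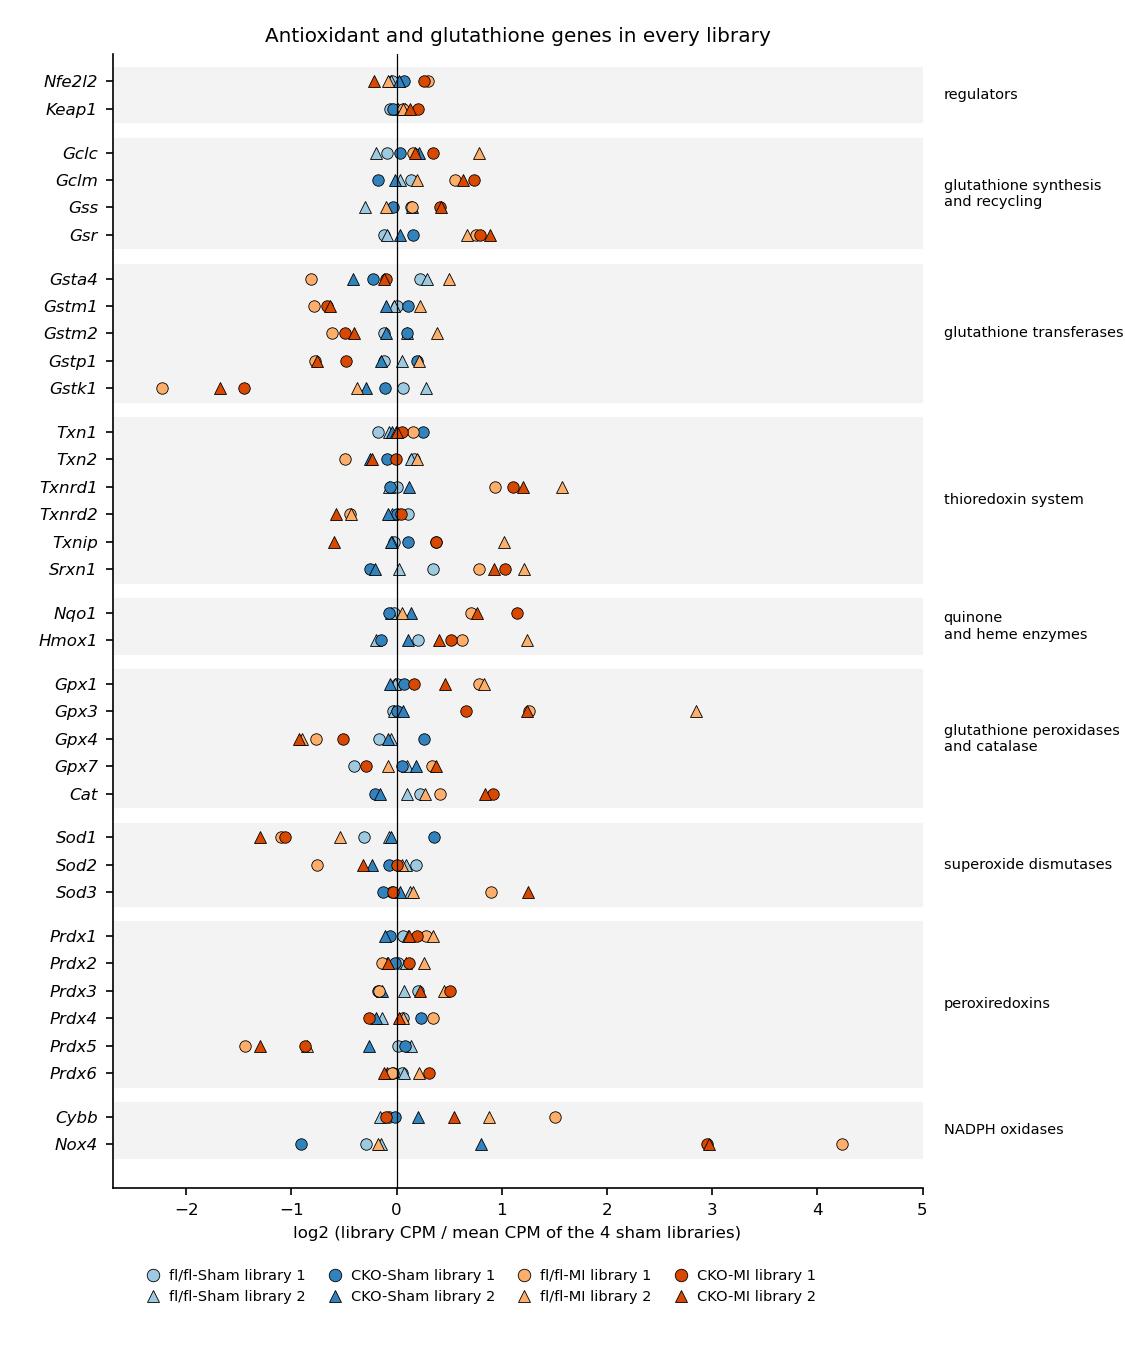
Log2 of each library's CPM over the mean CPM of the 4 sham libraries for the 35 tested members, grouped by role. Blue symbols are sham, orange and red MI, circles library 1 and triangles library 2 of each group. Txnrd1, Srxn1 and Gsr show 4 MI libraries to the right of all sham libraries, Gstk1, Prdx5 and Gpx4 to the left, and the fl/fl-MI 2 triangle stands away from the other MI symbols in Gpx3, Nox4 and the glutathione transferases.

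Neither regulator was called. Nfe2l2 stood at 70.02 and 69.6 CPM in fl/fl-Sham, 76.1 and 73.8 CPM in CKO-Sham, 88.8 and 68.3 CPM in the fl/fl-MI pair and 86.5 and 62.6 CPM in the CKO-MI pair. Its MI libraries lay on both sides of the sham range, and the log2 fold change was 0.08 ± 0.14 (SE, as throughout; adjusted p = 0.671, edgeR). Keap1 kept to 37.0 to 40.7 CPM in the sham and 40.3 to 44.6 CPM in the MI libraries, a log2 fold change of 0.12 ± 0.08 (adjusted p = 0.302, edgeR).

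Within the glutathione system, Gsr, the reductase that restores glutathione with NADPH, rose. It stood at 12.1 and 12.3 CPM in fl/fl-Sham, 14.6 and 13.4 CPM in CKO-Sham, 22.2 and 20.8 CPM in the fl/fl-MI pair and 22.7 and 24.3 CPM in the CKO-MI pair. The groups did not overlap, and the 4 MI libraries lay close together (log2 fold change 0.78 ± 0.10, adjusted p = 0.00172, edgeR). Gclm, the modifier subunit of the enzyme that starts glutathione synthesis, stood at 21.7, 20.1, 17.4 and 19.5 CPM in the sham libraries, in the order fl/fl-Sham 1 and 2 and CKO-Sham 1 and 2, and at 29.0, 22.5, 32.9 and 30.6 CPM in the MI libraries, in the order fl/fl-MI 1 and 2 and CKO-MI 1 and 2. The same order holds wherever 4 values are given. For Gclm the fl/fl-MI 2 library was only just above the highest sham library (0.54 ± 0.12, adjusted p = 0.0105, edgeR). The catalytic subunit Gclc and Gss were not called, at log2 fold changes of 0.39 ± 0.16 and 0.23 ± 0.14.

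The glutathione transferases, which join glutathione to electrophiles, had no member called higher. Gstk1, the kappa class enzyme of mitochondria and peroxisomes, stood at 43.3, 50.5, 38.4 and 33.9 CPM in sham and at 8.83, 32.1, 15.2 and 13.0 CPM after MI. Every MI library was below every sham library, with fl/fl-MI 2 just below the lowest of them, and the log2 fold change was -1.28 ± 0.36 (adjusted p = 0.028, edgeR). Without fl/fl-MI 2 it was -1.88 ± 0.12. The same library set the other transferases apart. Gstm1 was at 147 to 169 CPM in the sham libraries and at 91.4, 99.6 and 101 CPM in 3 MI libraries but at 184 CPM in fl/fl-MI 2, and Gstm2, Gstp1 and Gsta4 were likewise highest in fl/fl-MI 2 of all 8 libraries. With all libraries none of these 4 was called, with log2 fold changes from -0.42 to -0.03. Without fl/fl-MI 2 the log2 fold changes were -0.71 for Gstm1, -0.69 for Gstp1, -0.53 for Gstm2 and -0.43 for Gsta4. For Gsta4 this fall rested on fl/fl-MI 1, at 14.5 CPM. Its CKO-MI libraries, at 23.7 and 23.4 CPM, lay above the CKO-Sham libraries, at 21.8 and 19.1 CPM. Gstm1 and Gstm2, and Gstp1 with its neighbour Gstp2, are close copies whose reads may be split between them by the counting.

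The thioredoxin system held 2 of the called members. Txnrd1, the cytosolic thioredoxin reductase, stood at 34.8, 33.1, 33.2 and 37.8 CPM in sham and at 66.3, 103, 74.9 and 79.9 CPM after MI. Each MI library was well above all sham libraries, at a log2 fold change of 1.22 ± 0.15 (adjusted p = 0.00163, edgeR). Srxn1, sulfiredoxin, which repairs over-oxidized peroxiredoxins, stood at 29.1, 23.3, 19.2 and 19.8 CPM in sham and at 39.2, 52.9, 46.6 and 43.5 CPM after MI. The groups again did not overlap (1.01 ± 0.13, adjusted p = 0.00181, edgeR). Thioredoxin itself showed no such change: cytosolic Txn1 was at 25.2 to 33.9 CPM in sham and 28.4 to 31.8 CPM after MI (0.06 ± 0.10). Mitochondrial Txn2 and its reductase Txnrd2 had log2 fold changes of -0.10 ± 0.16 and -0.33 ± 0.15 and were not called. Txnip was at 563 to 632 CPM in the sham libraries and spread from 388 CPM in CKO-MI 2 to 1186 CPM in fl/fl-MI 2 (0.35 ± 0.24, not called).

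Txnrd1 also differed in which transcripts its counts were assigned to. The transcript ENSMUST00000219442, which starts at chr10:82860301, took 42.4, 88.7, 65.2 and 77.5% of the transcript counts of the gene in the sham libraries and 23.0, 4.8, 12 and 21.3% in the MI libraries. The transcript ENSMUST00000219962, which starts upstream at chr10:82859207, took 36.8, 7.7, 31.7 and 15.8% in sham and 55.9, 49.2, 56.5 and 59.6% after MI. The 2 sets of libraries did not overlap for either of these, and the sham libraries were far more spread than the MI libraries. They overlapped for the remaining one of the 3, ENSMUST00000020484, which took 20.1, 0.96, 0.37 and 4.05% in sham and 18.7, 32.6, 27.7 and 18.05% after MI. These shares are assignments by the deposited counting among overlapping transcripts, and they were not tested.

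**Figure D3:**
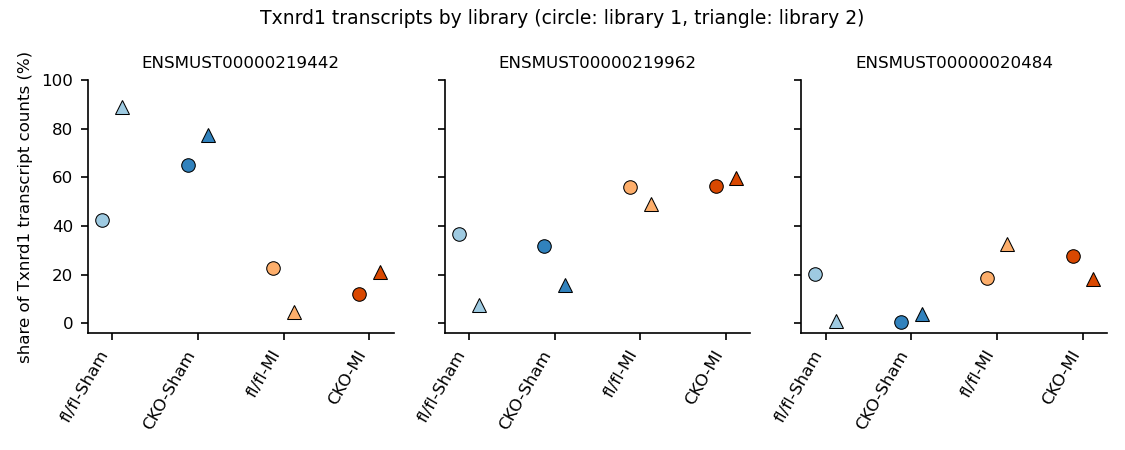
Share (%) of the Txnrd1 transcript counts given to each of the 3 transcripts with a mean share of at least 5%, by group and library. The left transcript takes 42.4 to 88.7% in sham and 4.8 to 23.0% in MI libraries and the middle one runs from 7.7 to 36.8% in sham and 49.2 to 59.6% in MI libraries, while for the right one the 2 sets overlap.

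The promoter letters of an antioxidant response element core, TGACNNNGC, were searched on both strands in RefSeq windows of 300 bases (250 before to 50 after a start site, GRCm38.p6), of which 30 members had at least 1. They were present for 6 of these 30 members (20%), against 14.0% of the 27025 genes with a window. Among called members the windows of Gclm, Txnrd1, Sod1 and Srxn1 held them, and among members not called those of Prdx1 and Nfe2l2. In Srxn1 they lay at 33 bases after the start site. A match describes letters and not a bound site. The stretches upstream of the start site are shown for 3 called members because Gclm and Txnrd1 rose after MI and Sod1 fell, with the core in capitals and each read 5′ to 3′ on the minus strand of the chromosome, opposite to the gene. They lie at chr3:122245408-122245446 for Gclm (core centred at -130 from the start site), chr10:82859099-82859137 for Txnrd1 (-88 from the start site that lies beside the start of ENSMUST00000219962) and chr16:90220691-90220729 for Sod1 (-52).
Gclm: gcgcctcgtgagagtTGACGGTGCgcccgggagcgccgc
Txnrd1: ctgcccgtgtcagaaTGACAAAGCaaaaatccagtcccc
Sod1: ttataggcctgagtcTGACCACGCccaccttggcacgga
The cores share the fixed letters and differ in the 3 free bases. The letters TGACTCA, which can overlap the core and do so in Prdx1, were present for 3 of the 30 members (10.0%) and 5.95% of all genes with a window, and in none of the 3 stretches shown. No window was given for Gclc, Gsr, Gsta4, Hmox1, Prdx6 and Sod3.

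Both quinone and heme enzymes were called higher. Nqo1, a quinone reductase, stood at 13.8, 13.5, 13.3 and 15.4 CPM in sham and at 22.9, 14.5, 30.9 and 23.8 CPM after MI. It was raised in 3 MI libraries, while fl/fl-MI 2 lay within the sham range (0.69 ± 0.17, adjusted p = 0.019, edgeR). Hmox1, the inducible heme oxygenase, stood at 17, 12.9, 13.3 and 15.9 CPM in sham and at 22.7, 35.0, 21.2 and 19.6 CPM after MI. Its groups did not overlap and fl/fl-MI 2 was the highest library (0.71 ± 0.17, adjusted p = 0.0168, edgeR).

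The peroxide-removing enzymes split. Gpx3 (chr11:54902453-54910377) stood at 211, 212, 217 and 226 CPM in sham and at 518, 1557, 342 and 512 CPM after MI. All MI libraries exceeded the sham libraries, but fl/fl-MI 2 held more CPM than the other 3 MI libraries together. The log2 fold change was 1.62 ± 0.34 (adjusted p = 0.00945, edgeR) and 1.12 ± 0.15 without that library. Gpx1, the cytosolic glutathione peroxidase, stood at 72.7, 71.6, 75.9 and 69.5 CPM in sham and at 125, 129, 81.5 and 99.4 CPM after MI. The groups did not overlap, and the CKO-MI libraries were the lower MI libraries (0.56 ± 0.10, adjusted p = 0.00598, edgeR). Catalase, encoded by Cat (chr2:103453849-103485160), stood at 113, 104, 84.0 and 86.7 CPM in sham and at 129, 117, 183 and 174 CPM after MI. All MI libraries were higher, those of CKO-MI by far (0.62 ± 0.09, adjusted p = 0.0031, edgeR). Gpx4, in contrast, stood at 273, 294, 368 and 290.0 CPM in sham and at 181, 165, 215 and 161 CPM after MI. No MI library reached the sham range (-0.76 ± 0.14, adjusted p = 0.00638, edgeR). Gpx7, a peroxidase of the endoplasmic reticulum, stayed at 5.95 to 10.2 CPM over all libraries and was not called.

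Among superoxide dismutases, the copper-zinc enzyme Sod1 (chr16:90220754-90226329) stood at 85.9, 101, 135 and 102 CPM in sham and at 49.5, 73.2, 50.9 and 43.3 CPM after MI. The groups did not overlap, with fl/fl-MI 2 nearest to the sham libraries (-0.97 ± 0.17, adjusted p = 0.00498, edgeR). Mitochondrial Sod2 was at 201 to 269 CPM in sham and 139.9 to 246 CPM after MI (-0.22 ± 0.19, not called). The extracellular Sod3 was not called either (0.66 ± 0.29). Of its MI libraries fl/fl-MI 1 and CKO-MI 2, at 72.7 and 93.1 CPM, were high and the other 2 MI libraries, at 43.4 and 38.1 CPM, were near the sham range of 35.8 to 42.7 CPM.

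Of the 6 peroxiredoxins, thiol peroxidases recharged by thioredoxin or glutathione, Prdx5 alone was called by edgeR. Prdx5 (chr19:6906697-6909978), found in mitochondria, peroxisomes and cytosol, stood at 229.7, 250.1, 240.1 and 189 CPM in sham and at 83.8, 126, 124 and 92.3 CPM after MI. No MI library came near the sham range (-1.09 ± 0.18, adjusted p = 0.00413, edgeR). Prdx5 shares 19.1% of its exonic bases with Trmt112 on the other strand, and whether the counting used strand was not stated. Prdx1 lay above the sham libraries in every MI library, at 125 to 146 CPM against 107 to 124 CPM, yet missed the threshold (0.24 ± 0.09, adjusted p = 0.0686, edgeR). DESeq2, which called 16 members in the averaged comparison (12 higher and 4 lower, no share of all genes given), did call it (adjusted p = 0.0413). The other 4 (Prdx2, Prdx3, Prdx4 and Prdx6) had log2 fold changes of 0.05 to 0.28 with overlapping groups.

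The NADPH oxidase subunits were the sources of oxidants in the list. Nox4 (chr7:87246096-87398710) stood at 2.85, 3.13, 1.85 and 6.05 CPM in sham and at 65.3, 3.08, 26.8 and 27.2 CPM after MI. It was far above sham in 3 MI libraries and at the sham level in fl/fl-MI 2, so the groups overlapped, and the log2 fold change of 3.15 ± 0.86 (adjusted p = 0.0254, edgeR) became 3.62 ± 0.35 without that library. Fibroblast markers were also lowest among the MI libraries in fl/fl-MI 2, at a summed 2218 CPM against 3282 to 6406 CPM in the other 3, and highest, as Nox4 was, in fl/fl-MI 1. The CKO-MI libraries, nearly equal in Nox4, had fibroblast sums of 3282 and 5430 CPM. The fl/fl-MI 2 sum was still above the sham sums, which reached 1551 CPM. Part of the Nox4 counts went to ENSMUST00000126887, a transcript annotated for nonsense-mediated decay and not as protein coding. It took 0, 0, 0 and 37.8% of the transcript counts of Nox4 in sham and 70.5, 0, 71.1 and 43.2% after MI. These assignments were not tested. Cybb, the phagocyte oxidase subunit gp91phox, stood at 13.0, 12.3, 13.6 and 15.7 CPM in sham and at 38.7, 25.1, 12.8 and 19.9 CPM after MI. CKO-MI 1 was within the sham range and fl/fl-MI 1 was the highest (0.75 ± 0.20, adjusted p = 0.0226, edgeR). The summed macrophage markers, of which 2 of 7 were called higher, had the same lowest and highest MI libraries, at 194 CPM in CKO-MI 1 and 465 CPM in fl/fl-MI 1. The part of cell content in the Nox4 and Cybb values was not tested.

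The calls were not equally firm. Txnrd1, Srxn1, Gsr, Cat, Gpx1, Gpx3, Sod1, Prdx5 and Gpx4 (9 members) were called in each of the 8 fits that left out 1 library. No share of all genes called in all 8 of these fits is given, so the count of 9 is not read as a result about the members. Gclm was called in 6 and Hmox1 in 5 of these 8 fits, Nqo1 and Cybb in 3 and Nox4 and Gstk1 in 2. Gclm lost its call without fl/fl-Sham 2 or CKO-Sham 1 (log2 fold changes 0.50 to 0.51), and Hmox1 without either of these or without CKO-MI 1 (0.62 to 0.66). Nqo1 lost it without any 1 sham library or CKO-MI 1 (0.56 to 0.74) and Cybb without any 1 sham library or CKO-MI 2 (0.55 to 0.80). Nox4 (2.84 to 3.69) and Gstk1 (-1.36 to -1.22) lost it without any 1 sham or CKO-MI library. Leaving out fl/fl-MI 2 raised the called members to 22, against 50.7% of all genes called in that fit.

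The direction of the 15 calls held on the other scale of the deposited files. In log2(FPKM + 1) tested with limma, the median of all genes tested was itself 0.41 higher after MI, so values on that scale are read relative to this median. Relative to it, all 15 called members kept their direction, with Gpx3 at 1.65, Nox4 at 1.30, Txnrd1 at 1.14, Sod1 at -0.80, Prdx5 at -0.95 and Gstk1 at -1.20. Txn2 and Gsta4, neither of them called by edgeR, changed sign. Tested without the correction, Prdx5 was the only fall that limma still called. Sod1, Gstk1 and Gpx4 were not called (adjusted p = 0.0528, 0.058 and 0.278, limma). Read without that correction, 7 uncalled members that were lower by counts were higher by FPKM (Txn2, Sod2, Gsta4, Gstm2, Gstm1, Gstp1 and Txnrd2). In the same fit limma called 24 members higher and 1 lower. The raised median of all genes enters these counts, and no share of all genes called is given for limma. They are therefore not read as a result about the members.

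The MI change was next taken in each labelled genotype alone, 2 libraries against 2. In fl/fl-MI against fl/fl-Sham, 7 members were called higher (Gpx3, Cybb, Txnrd1, Hmox1, Gsr, Srxn1 and Gpx1, 20%, background 10.1%) and 2 lower (Prdx5 and Gpx4, 5.71%, background 8.45%). In CKO-MI against CKO-Sham, 6 were called higher (Srxn1, Txnrd1, Cat, Nqo1, Gclm and Gsr, 17.1%, background 12.8%) and 3 lower (Sod1, Prdx5 and Gpx4, 8.57%, background 11.9%). Txnrd1, Srxn1, Gsr, Prdx5 and Gpx4 were called in both. Txnrd1 changed by 1.32 ± 0.22 in the fl/fl and by 1.13 ± 0.22 in the CKO libraries (log2). Srxn1 changed by 0.81 ± 0.18 and by 1.21 ± 0.19, and Prdx5 by -1.19 ± 0.25 and by -0.99 ± 0.25. For Cat the MI change was 0.18 ± 0.13 in fl/fl and 1.07 ± 0.13 in CKO libraries, for Cybb 1.33 ± 0.28 and 0.16 ± 0.28, and for Gpx3 2.29 ± 0.49 and 0.95 ± 0.47. Without fl/fl-MI 2 the fl/fl change of Gpx3 was 1.29 ± 0.23, and that of Hmox1 was 0.60 ± 0.21 and no longer called. When the fl/fl libraries were fitted on their own, no member was called in fl/fl-MI against fl/fl-Sham by edgeR, with 10 at an unadjusted p under 0.05. When the CKO libraries were fitted on their own 16 were called. No share of all genes is given for these fits.

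**Figure D4:**
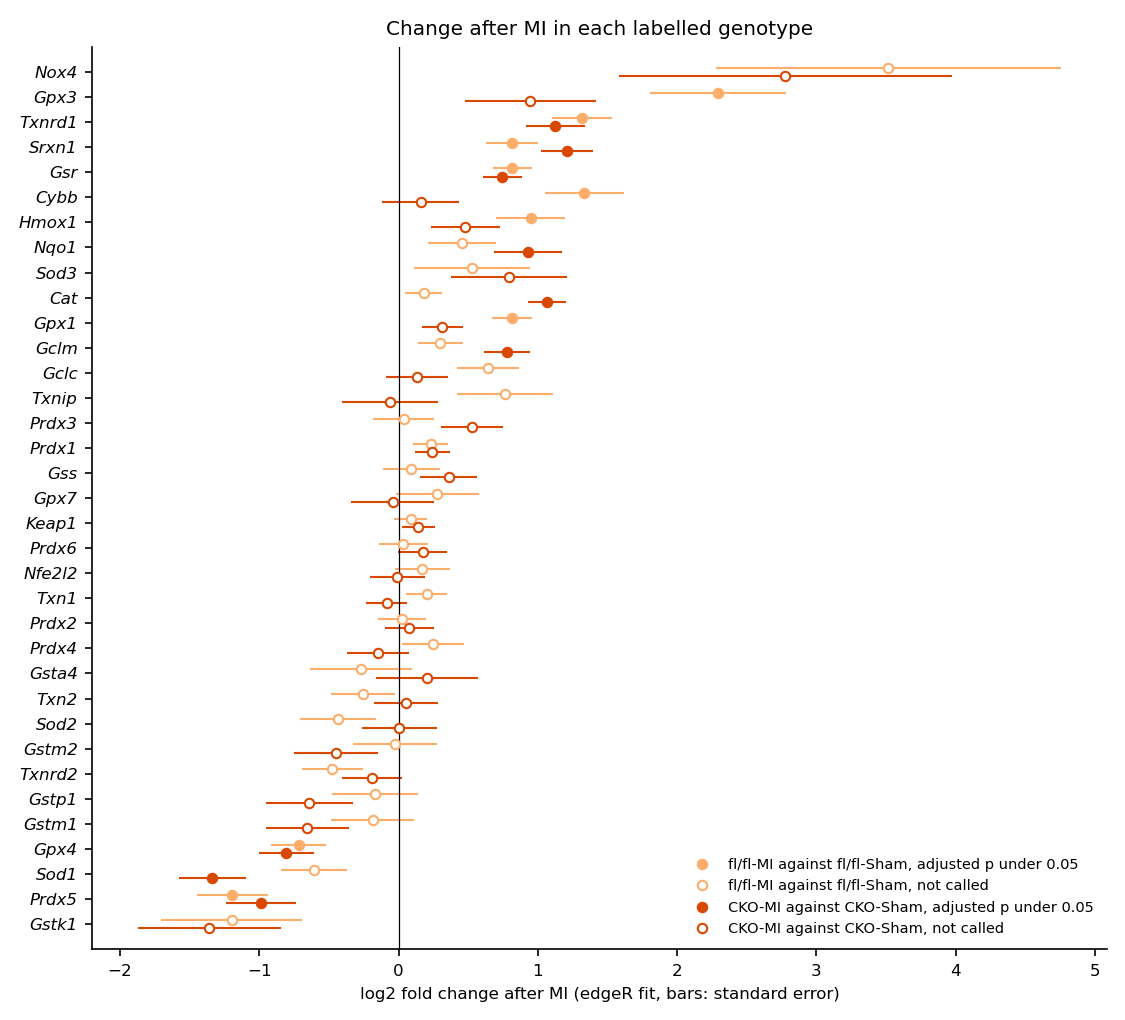
Log2 fold change after MI for the 35 tested members in the fl/fl (light orange) and CKO (red) libraries, with bars of 1 standard error. Filled points passed an adjusted p under 0.05 in edgeR. The genotypes lie close for Txnrd1, Gsr, Prdx5 and Gpx4 and furthest apart in units of their errors for Cat and Cybb.

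Whether these changes differed between genotypes was tested directly. By edgeR none of the 35 members had an MI change that differed between genotypes at an adjusted p under 0.05 (background 0%). At an unadjusted p under 0.05 in edgeR, 3 did (Cat, Cybb and Gpx1, 8.57% of the members against a background of 8.49%). DESeq2 called 1 (Cat) and limma none, with no share of all genes given for either. For Cat the difference of the MI changes, CKO minus fl/fl, was 0.88 ± 0.19 in log2 (adjusted p = 0.56, edgeR), for Cybb -1.18 ± 0.39 (adjusted p = 0.574, edgeR) and for Gpx1 -0.50 ± 0.21 (adjusted p = 0.578, edgeR).

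After MI, CKO and fl/fl libraries were compared with each other as labelled. By edgeR no member was called (background 0%), and 4 passed an unadjusted p under 0.05 (Cat, Cybb, Gpx1 and Gpx3, 11.4%, background 8.31%). Of these 4 only Gpx3 also met a 2-fold difference (background 3.21%). DESeq2 called 1 (Cat) and limma none, with no share of all genes given for either. The median log2 difference was -0.07 over the members and -0.01 over all genes. Cat was higher in the libraries labelled CKO-MI, at 183 and 174 CPM against 129 and 117 CPM in fl/fl-MI (0.54 ± 0.13, adjusted p = 0.502, edgeR). Gpx1 was lower in them, at 81.5 and 99.4 CPM against 125 and 129 CPM (-0.49 ± 0.15, adjusted p = 0.549, edgeR). Cybb was at 12.8 and 19.9 CPM against 38.7 and 25.1 CPM (-0.96 ± 0.28, adjusted p = 0.549, edgeR), with the summed macrophage markers at 194 and 356 CPM against 465 and 366 CPM. Gpx3 was at 342 and 512 CPM against 518 and 1557 CPM (-1.28 ± 0.47, adjusted p = 0.556, edgeR), so that CKO-MI 2 and fl/fl-MI 1 nearly met. The pairs of libraries did not overlap in these 4, which were picked by their unadjusted p in this same comparison. No share of all genes without overlap is given for 2 against 2 libraries. None of the 4 differences passed the adjusted threshold.

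**Figure D5:**
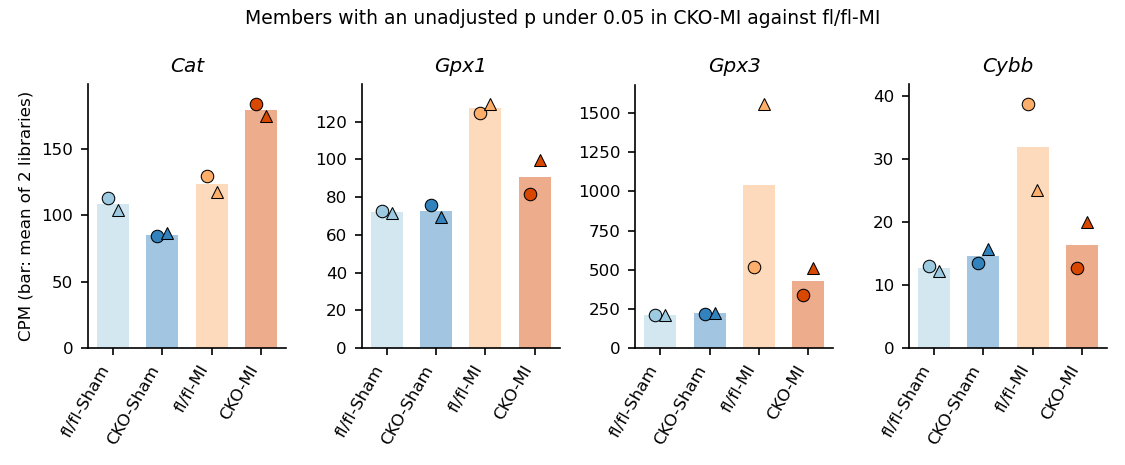
CPM of the 4 members with an unadjusted p under 0.05 in CKO-MI against fl/fl-MI, by group, with bars as means of 2 libraries and each library as a point (circle library 1, triangle library 2), each panel on its own axis from 0. Cat is highest in CKO-MI (183 and 174 CPM), Gpx1 and Cybb in fl/fl-MI, and the fl/fl-MI mean of Gpx3 is carried by fl/fl-MI 2 at 1557 CPM.

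This comparison turned on the fl/fl-MI libraries. Without fl/fl-MI 1, 9 members were called in this comparison, and 11.9% of all genes, but the fl/fl-MI side is then fl/fl-MI 2 alone, whose spread is taken from the other groups. The 9 were Nox4 (3.15), Nqo1 (0.93) and Cat (0.63), higher in CKO-MI, and Gpx3 (-1.85), Gstk1 (-1.17), Gstm1 (-0.86), Gstm2 (-0.81), Gstp1 (-0.80) and Gsta4 (-0.59), lower in CKO-MI, with log2 differences in brackets. With fl/fl-MI 1 as the lone fl/fl-MI library instead, no member was called. Over the 8 fits that left out a library, the difference in Cat stayed between 0.47 and 0.63, that in Gpx1 between -0.60 and -0.34, that in Cybb between -1.28 and -0.60 (the latter without fl/fl-MI 1) and that in Gpx3 between -1.85 and -0.28 (the latter without fl/fl-MI 2).

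In sham hearts the labelled genotypes were closer. By edgeR no member was called between CKO-Sham and fl/fl-Sham (background 0.00713%), DESeq2 and limma called none, and 1 member, Cat, passed an unadjusted p under 0.05 (2.86%, background 3.89%). Cat was at 84.0 and 86.7 CPM in CKO-Sham and 113 and 104 CPM in fl/fl-Sham, without overlap (-0.35 ± 0.13, adjusted p = 1, edgeR). Its direction between genotypes in sham was thus opposite to that after MI.

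Other genes of the same pathways were followed as a second list of 93 names, of which 81 identifiers were tested. After MI, 18 were called higher and 11 lower (edgeR), beside 3091 and 2572 of all 14028 genes, and the median log2 fold change was 0.17. Of 7 partners and regulators of NRF2, 5 were called higher and 1 lower. Maff, a small MAF protein that pairs with NRF2 on DNA, was at 10.5 to 15.9 CPM in sham and 26.7 to 97.4 CPM after MI (log2 fold change 1.84 ± 0.26). It was highest in fl/fl-MI 2, with the other MI libraries at 26.7 to 41.9 CPM, and its change was 1.47 without fl/fl-MI 2. The largest rise was that of the metallothionein Mt2, which binds metals and scavenges oxidants (2.18 ± 0.50), with fl/fl-MI 2 at 118 CPM against 18.0 to 19.2 CPM in the other MI libraries, and the change was 1.26 ± 0.12 without that library. The others with the largest rises were Ugdh, which makes UDP-glucuronate (1.29 ± 0.30), Sesn3, a sestrin (1.28 ± 0.17), and Msrb3, a methionine sulfoxide reductase (1.21 ± 0.10). Ugdh was likewise highest in fl/fl-MI 2, at 156 CPM against 43.4 to 58.5 CPM in the other MI libraries, and its change was 0.83 ± 0.13 without that library. The largest falls were in Gstt2, a theta class glutathione transferase (-2.04 ± 0.22), Xdh, xanthine dehydrogenase, itself a source of oxidants (-1.81 ± 0.22), Ggt5, a gamma-glutamyl transferase (-1.48 ± 0.16), Glrx5, a mitochondrial glutaredoxin (-0.92 ± 0.12), and Msrb2, a mitochondrial methionine sulfoxide reductase (-0.90 ± 0.13). Of 6 partner subunits of the oxidases, 1 was called higher and 1 lower, with a median log2 fold change of 0.40. Cyba, which encodes the p22phox subunit shared by the NOX2 and NOX4 enzymes, was the one called lower (-0.65 ± 0.20), and Ncf1 was not called (0.65 ± 0.27, adjusted p = 0.099, edgeR).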

How the data were processed

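The 36 members and the second list of pathway genes were chosen with earlier results of these data known. The deposited gene table held, per the file headers, raw counts and FPKM per gene for all 8 libraries, and a second deposited table the same per transcript. The authors made poly(A) RNA libraries for paired-end sequencing, and the submitters' processing notes name cutadapt 1.9 and FastQC. The aligner, counter and annotation are not given in the sources used here, and 30 of the 36 members had the coordinates of GENCODE M21 (GRCm38). No value column lacked a sample.

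Groups were taken from the labels. Counts were scaled to CPM by TMM and fitted with edgeR 4.0.16 (quasi-likelihood, R 4.3.3) on all 8 libraries with a mean per group, for the 14028 genes whose FPKM averaged 0.5 or more. A call is an adjusted p (Benjamini-Hochberg) under 0.05. Levels between genes were compared in the deposited FPKM. limma 3.58.1 on log2(FPKM + 1), DESeq2 1.42.0, other scalings and filters, and fits without each library in turn were alternatives. On simulated data the fit recovered 71 of 100 genes changed 2-fold and 96 of 100 changed 4-fold in the comparison of 4 against 4 libraries, and 22 and 92 of 100 in fl/fl-MI against fl/fl-Sham, among 14028 genes with 8 wrong calls. Only these genes were changed in the simulation, and none was drawn from the genes of lowest level. In the real averaged comparison 40.4% of all genes were called, so these rates need not hold for it.

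Members called in the averaged MI comparison, members with an unadjusted p under 0.05 in a genotype comparison or in the test of the difference of MI changes, and the 2 regulators were described in full. From the second list the 5 largest called changes in each direction, and Cyba, Ncf1 and Nnt, were named, and 1 further gene is not reported here. Promoter windows are from RefSeq (GRCm38.p6). Protein sequences were not used here.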

Additional observations from a re-analysis of the deposited data

How the results depend on the processing

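The number of members called after MI with the genotypes averaged was 15. It was 25 with limma on log2(FPKM + 1) and 25 on log2(FPKM + 0.1), of which 12 were shared with the 15 in each case, and ran from 9 to 22 when 1 library was left out, lowest without fl/fl-Sham 2 or CKO-Sham 1. In fl/fl-MI against fl/fl-Sham 9 were called, 20 and 21 with the same limma fits, 0 with only the libraries compared (10 at an unadjusted p under 0.05 in edgeR) and 0 to 18 without 1 library, with 0 without fl/fl-Sham 1 or 2, 4 without CKO-Sham 1 or 2 and 18 without fl/fl-MI 2. In CKO-MI against CKO-Sham 9 were called, 18 and 18 with limma, 16 with only the libraries compared and 0 to 16 without 1 library, with 0 without CKO-Sham 1, 2 without CKO-Sham 2 or CKO-MI 2, 4 without CKO-MI 1, 6 without fl/fl-Sham 1 or 2 and 16 without fl/fl-MI 1 or 2. Between CKO-MI and fl/fl-MI 0 were called, 1 with DESeq2 and 0 to 9 without 1 library, and for the difference of MI changes 0, 1 with DESeq2 and 0 to 3, the highest of both without fl/fl-MI 1. The sham groups differed in 0 members under every alternative run. The pathway list had 29 calls after MI, 51 and 51 with limma and 14 to 44 without 1 library. The cause of these shifts was not tested. No share of all genes is given beside these counts, so they are not read as a result about the members. Nfe2l2, not called, changed sign without 1 library, from -0.0741 (without CKO-MI 1; -0.04 without fl/fl-MI 1) to 0.1723 (without CKO-MI 2). The labels number replicates 1 and 2 in each group without saying that a number pairs libraries, and the deviations of same-numbered libraries correlated at -0.21 to 0.06. With a replicate block 14, 6 and 8 members were called in the averaged, fl/fl and CKO comparisons of MI with sham, and none in the others. Counts divided by 4, chosen after seeing the data, gave 15, 9 and 9. Of 425 further values of single members under the alternatives, 380 kept direction and side of the threshold, 34 lost the call, 9 gained it and 2 reversed. In the simulation of fl/fl-MI against fl/fl-Sham 22 of 100 changes of 2-fold were called, and the genotype comparisons were not simulated.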

Other observations

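Nnt, which encodes the mitochondrial enzyme that makes NADPH for glutathione and thioredoxin reduction, is listed under 2 identifiers, and neither had an unadjusted p under 0.05 in any of the 6 edgeR comparisons. The identifier ENSMUSG00000025453 stood at 3.94 and 118 CPM in fl/fl-Sham, 75.5 and 8.72 CPM in CKO-Sham, 122 and 35.3 CPM in the fl/fl-MI pair and 27.1 and 143 CPM in the CKO-MI pair. The identifier ENSMUSG00000116207 stood at 185 and 56.1 CPM in fl/fl-Sham, 66.4 and 133 CPM in CKO-Sham, 69.8 and 157 CPM in the fl/fl-MI pair and 255 and 47.1 CPM in the CKO-MI pair. Within each group the library that was lower for the first identifier was the higher one for the second, and the spread between the 2 libraries of a group exceeded any difference between groups. The labels give no strain for the mice, and whether the libraries differ in their Nnt alleles was not tested.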
